A study of Homo sapiens with 12 samples.

Results

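The transcriptome of HepG2 cells that had lost ARID1B was compared with that of wild-type HepG2 cells in the absence of drug. HepG2 is an established tumour line of human liver in which many functions of hepatocytes persist. The comparison rests on 6 of the study's 12 polyadenylated RNA libraries: 3 from wild-type cells and 3 from cells in which ARID1B was disrupted with CRISPR/Cas9 (ARID1B-KO), all kept in the vehicle of the drug, DMSO at 0.1% by volume, as the matched control of a treatment of 48 h. The libraries were picked by their titles. The other 6 libraries came from both genotypes given the kinase inhibitor sorafenib at 5 µM. They entered the fit so that all groups shared an estimate of the spread, and they served as separate libraries in which the same genotype difference could be measured. The replicates are described as biological, but the labels do not give the number of knockout clones. Differences between genotypes and differences between clones therefore cannot be told apart, and p-values measure the spread between these libraries.

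ARID1B and its paralog ARID1A are alternative DNA-binding subunits of the canonical BAF complex, the human counterpart of yeast SWI/SNF. The complex burns ATP through SMARCA4 or SMARCA2 to slide or evict nucleosomes and so keeps enhancers and promoters open to transcription factors. Its sister assemblies, PBAF (with ARID2 and PBRM1) and non-canonical BAF (with BRD9), share the core but lack ARID1 proteins. Genes of the complex are often mutated in liver cancer, and ARID1B is also a gene of intellectual disability (Coffin-Siris syndrome).

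The 6 libraries held 19739582 to 29398257 estimated counts, of which 6.75% to 12.22% came from mitochondrially encoded genes. Levels below are CPM, the counts of a gene scaled to a fixed library total, in the order of the replicate numbers, and do not take the length of a transcript into account. TPM values do, and they are used for levels summed over genes and for shares within a gene. The first principal component of the 6 libraries, with 55.5% of the variance, separated the genotypes. Correlations of log2 CPM were 0.9726 to 0.9788 within a genotype and 0.938 to 0.9493 between genotypes, given here as a description over genes that share a library. The 12 hepatocyte markers summed to 75352 to 82396 TPM in wild type and 95660 to 110771 TPM in ARID1B-KO. Most of that rise was ALB, at 30868 to 33307 TPM in wild type and 52964 to 60026 TPM in ARID1B-KO. By TPM, AFP, APOA1 and HNF4A were also higher in all knockout libraries. FGB and TTR were lower in all of them, and the other markers overlapped between genotypes. CYP2E1, a marker of mature hepatocytes, was at 0 in all but 1 library. Cholangiocyte markers summed to 659 to 794 and 773 to 901 TPM, stellate cell markers to 26.0 to 31.5 and 34.8 to 35.9 TPM, and endothelial markers to 0.22 to 0.70 and 0.59 to 2.69 TPM. The stellate cell markers COL1A2, COL3A1, DCN and LRAT, and the endothelial markers ERG, KDR, STAB2 and TEK, were under 0.1 TPM in every library. The blood and immune markers summed to 4143 to 5138 TPM in wild type and 2329 to 2835 TPM in ARID1B-KO, nearly all of it the lysozyme gene LYZ, while CD163, CD3E, HBB, MS4A1 and PTPRC were under 0.1 TPM throughout. Markers of the kidney line HEK293 and of cervical and other epithelial lines stayed under 0.5 TPM in sum. In bulk RNA, fewer cells of a type and less RNA per cell cannot be told apart.

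The RNA of the disrupted gene itself comes before the others. On build GRCh38, ARID1B (ENSG00000049618.25; chromosome 6, 156776020 to 157210779, plus strand) was measured at 58.4, 61.9 and 66.7 CPM in wild type and at 26.4, 28.0 and 27.6 CPM in ARID1B-KO. All knockout libraries lay below all wild-type libraries. The log2 fold change was -1.19 ± 0.11 (edgeR's quasi-likelihood test, Benjamini-Hochberg adjusted p = 7.44e-06). ARID1B RNA was thus reduced and not lost. A fit that also corrects each gene for the effective length of the transcripts assigned to it, called the length-corrected fit below, gave -0.79 ± 0.13 (edgeR adjusted p = 0.00172). How the lesion changes the protein cannot be read from RNA counts.

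Genotype differences were widespread and mostly small. Of 12821 genes with enough counts to test (12240 protein coding), 3563 were called at an adjusted p under 0.05, which is 27.8% of them: 1829 were higher in ARID1B-KO (14.3%) and 1734 lower (13.5%). The median log2 fold change over all genes was 0.00. In 42.2% of the genes tested, the libraries of the genotypes did not overlap. A test against a fold change of 2 (edgeR's TREAT) called 130 genes higher (1.01%) and 178 lower (1.39%). Large differences lay mostly among weakly expressed genes: of 4 equal groups of genes by level, the lowest held 66 of the 130 large rises and 104 of the 178 large falls, and the highest held 9 and 21. The length-corrected fit called 2190 genes, and 54.9% of the 3563 were among them. It called 207 at more than 2-fold, with 64.9% of the 308 among them.

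**Figure D1:**
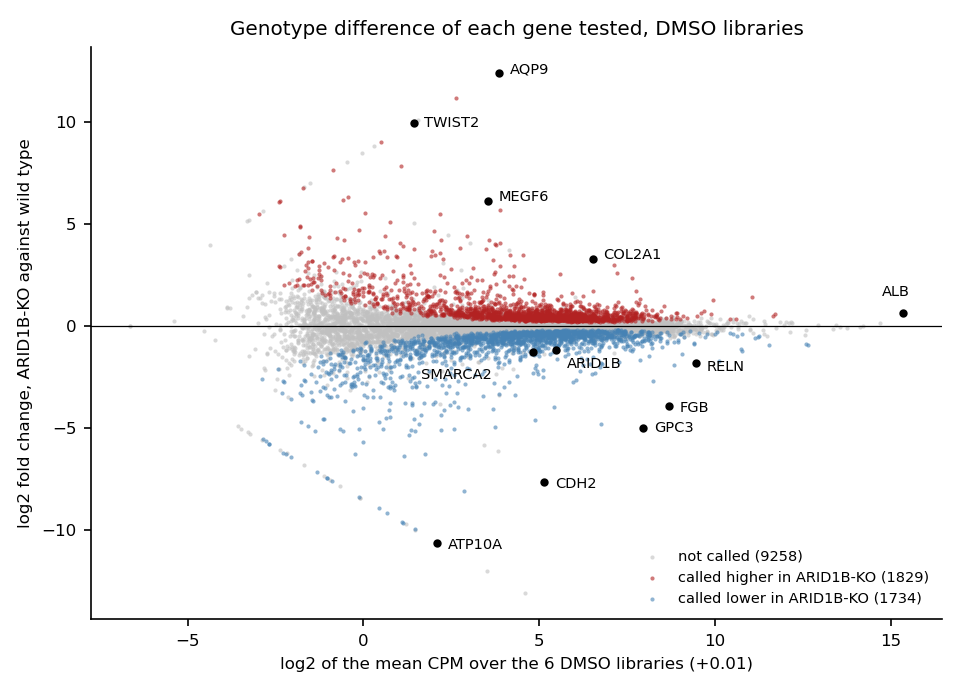
Each point is a gene tested, with its mean level over the 6 DMSO libraries on a log2 axis (x, CPM + 0.01) and its log2 fold change, knockout over wild type (y). Red points are the 1829 genes called higher and blue points the 1734 called lower, and black points mark named genes. The slanted lines of points at the left and bottom are genes at or near 0 counts in 1 genotype, such as ATP10A.

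Among the 27 tested subunits of BAF, PBAF and non-canonical BAF, 4 rose and 3 fell, ARID1B included, and the list's median was 0.08 against 0.00 over all genes. The counts higher were 2 without the second wild-type, the second ARID1B-KO or the third ARID1B-KO library, and 2 in the length-corrected fit. SMARCA2, the alternative ATPase, was at 38.5, 45.5 and 37.9 CPM in wild type and 18.2, 14.96 and 15.9 CPM in ARID1B-KO. Its log2 fold change was -1.31 ± 0.10 (edgeR adjusted p = 1.24e-06), with no overlap between genotypes. The other ATPase, SMARCA4, was at 108, 128 and 133 CPM in wild type and 142, 149 and 125 CPM in ARID1B-KO. These values overlapped, and the difference of 0.17 ± 0.09 was not called (edgeR adjusted p = 0.177).

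The core scaffold SMARCC2 fell from 30.4, 36.6 and 39.6 to 21.4, 21.7 and 22.1 CPM, -0.71 ± 0.10 on the log2 scale (edgeR adjusted p = 0.000261). That call was lost in the length-corrected fit, at -0.15 ± 0.23 (edgeR adjusted p = 0.696). BCL7A, a small accessory subunit, rose from 8.25, 9.32 and 9.18 to 16.2, 15.9 and 15.8 CPM, 0.84 ± 0.11 on the log2 scale (edgeR adjusted p = 0.000145). Both genotypes were tight around their means for this gene. The paralog ARID1A, at 0.13 ± 0.11 (edgeR adjusted p = 0.387), and the PBAF subunit ARID2, at 0.14 ± 0.10 (adjusted p = 0.285), were not called. The core subunit SMARCB1 cannot be read: its counts were 161, 27 and 54 in wild type and 14, 160 and 45 in ARID1B-KO, a spread among replicates larger than any genotype difference.

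Some genes were read in one genotype and not in the other. AQP9, a channel for water, glycerol and urea in hepatocytes (chromosome 15, 58138169 to 58185911, plus strand), had 0 counts in all 3 wild-type libraries and 37.6, 29.3 and 19.7 CPM in ARID1B-KO. Its 1853 counts make it at least 745-fold higher, against a floor of 3 counts over the wild-type group. TWIST2, a basic helix-loop-helix repressor of mesenchymal development (chromosome 2, 238848032 to 238910534, plus strand), went from 0 to 5.18, 5.44 and 5.43 CPM, at least 138-fold higher. The lipid flippase gene ATP10A (chromosome 15, 25677273 to 25865184, minus strand) showed the opposite, with 6.02, 8.33 and 11.3 CPM in wild type and no count in ARID1B-KO, which is at least 182-fold lower. These bounds cover counting error only. The N-cadherin gene CDH2 (chromosome 18, 27932879 to 28177946, minus strand), a calcium-dependent adhesion molecule, was close to that state: it fell from 66.4, 72.8 and 71.4 CPM to 0.713, 0.270 and 0.0481 CPM, -7.65 ± 0.38 on the log2 scale (edgeR adjusted p = 5.58e-08), or -8.72 without the first ARID1B-KO library.

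The 250 bases before a RefSeq start of these 4 genes are shown because 3 of the genes were at 0 counts in a genotype and CDH2 was close to it, and because the stretches differ in base composition. They are from RefSeq (GRCh38.p14) and are read 5′ to 3′ on the strand of the gene. CpG dinucleotides are in capitals. RefSeq lists more than 1 start for AQP9 and CDH2, of which the first in the table is given. GENCODE annotates starts further upstream for ATP10A, CDH2 and TWIST2, so the stretches of ATP10A and CDH2 lie inside the genes as given above, and that of TWIST2 reaches into its gene.
AQP9 (chr15:58137919-58138168, plus strand): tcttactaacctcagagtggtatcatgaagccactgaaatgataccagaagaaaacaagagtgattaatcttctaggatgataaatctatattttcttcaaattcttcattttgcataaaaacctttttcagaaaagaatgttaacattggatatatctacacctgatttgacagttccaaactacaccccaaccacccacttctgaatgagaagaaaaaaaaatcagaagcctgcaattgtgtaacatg
TWIST2 (chr2:238847835-238848084, plus strand): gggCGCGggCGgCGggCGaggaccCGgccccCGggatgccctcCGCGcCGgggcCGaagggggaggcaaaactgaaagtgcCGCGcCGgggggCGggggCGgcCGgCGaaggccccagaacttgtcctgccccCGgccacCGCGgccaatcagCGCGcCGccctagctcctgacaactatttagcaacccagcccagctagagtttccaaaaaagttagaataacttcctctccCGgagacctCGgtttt
ATP10A (chr15:25863328-25863577, minus strand): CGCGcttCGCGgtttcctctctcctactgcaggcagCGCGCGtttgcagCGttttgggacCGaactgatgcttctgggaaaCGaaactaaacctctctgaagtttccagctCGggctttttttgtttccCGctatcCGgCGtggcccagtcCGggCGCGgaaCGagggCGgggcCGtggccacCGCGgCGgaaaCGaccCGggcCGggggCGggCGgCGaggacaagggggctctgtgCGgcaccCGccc
CDH2 (chr18:28177131-28177380, minus strand): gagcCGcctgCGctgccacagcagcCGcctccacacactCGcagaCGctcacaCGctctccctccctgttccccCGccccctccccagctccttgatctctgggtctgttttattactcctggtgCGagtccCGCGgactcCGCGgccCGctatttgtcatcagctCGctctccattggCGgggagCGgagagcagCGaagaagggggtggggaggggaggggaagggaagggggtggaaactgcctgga
The AQP9 stretch held 0 CpG, against 26 for TWIST2, 31 for ATP10A and 17 for CDH2. Over the 9861 of 12821 tested genes with an entry, the median was 21. The genes that rose by more than 2-fold had a median of 14 (90 with an entry) and those that fell by more than 2-fold a median of 16 (135 with an entry). At most 5 CpG were found in 9.2% of all promoters, in 27.8% of the large rises and in 25.2% of the large falls. Over all called genes, the median was 21 in both directions, with at most 5 CpG in 12.6% of those higher and 13.5% of those lower. The large differences lay mostly among weakly expressed genes, and the groups were not matched for level.

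Short motifs were searched on both strands of the same 250 bases. TATAAA, the TATA box, was found in 5.2% of all promoters, 12.2% of large rises and 12.6% of large falls. AGATAA, the site of GATA factors, was found in 4.6%, 6.7% and 11.1% in the same order. TTGCNNAA, a C/EBP site, was found in 6.1%, 14.4% and 5.9%. For GGAATG, a TEAD site, the shares were 9.3%, 10.0% and 15.6%, and for TGANTCA, the AP-1 site, 3.6%, 2.2% and 5.9%. The E-box CAGCTG (12.7%, 14.4% and 11.1%), the cyclic AMP element TGACGTCA (3.0%, 4.4% and 1.5%) and the forkhead site TGTTTAC (1.9%, 3.3% and 2.2%) completed the search. These matches describe letters near a start and no binding. They were not tested, and the groups were not matched for level.

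Other genes at 0 in all libraries of a genotype and above 5 CPM in the other were ENSG00000257411, with 17.4, 5.44 and 14.3 CPM in ARID1B-KO, at least 315-fold higher (edgeR adjusted p = 0.000179), and ENSG00000280071, with 161, 198 and 44 counts in wild type, at least 111-fold lower (edgeR adjusted p = 0.029). The second call was lost when any library but the third wild-type one was left out (edgeR adjusted p = 0.0561 to 0.0652), and in the fit without a filter on low counts. Below that level, SEMA3A, a secreted repellent of growing axons, was at 4.24, 3.56 and 5.13 CPM in wild type and without a count in ARID1B-KO, which is at least 93.2-fold lower. APCDD1, a membrane inhibitor of WNT signalling, was at 3.83, 4.31 and 4.53 CPM against 0 counts, at least 89.9-fold lower. The X-linked, retrotransposon-derived gene RTL8C was at 14.2, 14.3 and 14.4 CPM in wild type and had 3 counts in ARID1B-KO, a ratio of 306 (95% interval 104 to 1480, counting error only). In these 3 genes all wild-type libraries were above all ARID1B-KO libraries.

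Absence in 1 genotype was not always repeatable. UGT2A3, a glucuronosyltransferase, held 262, 2631 and 307 counts in wild type and 0 in ARID1B-KO, and was not called (edgeR adjusted p = 0.111). The polycomb gene RING1 had 0, 763 and 858 counts in wild type and 0 in ARID1B-KO (edgeR adjusted p = 0.143), and DESeq2 did call it (adjusted p = 0.0085). INTS3, with 480, 0 and 0 against 0, and ITGB1P1, with 0 against 249, 128 and 0, were not called either. In all, 80 tested genes (0.62%) had 0 counts in at least 1 replicate of a genotype and at least 50 in another of the same genotype. Of these, 1 was called. Salmon divides reads among near-identical sequences, and the part of that division in these values was not tested.

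The largest falls among well expressed genes are given next. GPC3, a heparan sulfate proteoglycan of the cell surface and a marker of liver cancer (chromosome X, 133535745 to 133987100, minus strand), was at 466, 497 and 481 CPM in wild type and at 14.7, 17.2 and 12.3 CPM in ARID1B-KO. The log2 fold change was -5.03 ± 0.22 (edgeR adjusted p = 1.39e-08). Its genotypes did not overlap, and the replicates differed by far less than the genotypes.

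TAGLN, an actin-binding protein of contractile cells, fell from 81.8, 66.8 and 93.1 to 4.56, 6.06 and 4.57 CPM (-3.99 ± 0.17, edgeR adjusted p = 1.24e-08). FGB, the beta chain of fibrinogen, fell from 865, 773 and 682 to 57.7, 51.4 and 40.8 CPM (-3.95 ± 0.20, edgeR adjusted p = 3.33e-08). The claudin CLDN6, found in fetal tissue and tumours, changed by -4.95 and the elastic-fibre glycoprotein EMILIN1 by -4.64. Further falls of this size were CAP2 (cyclase-associated actin regulator, -5.08), KLF9 (a Krüppel-like factor, -4.06), CCN1 (a matricellular protein, -4.08), L1CAM (a neural adhesion molecule, -3.89), TANC1 (a scaffold protein, -3.75) and PLG (plasminogen, -3.45). In all of these, the highest knockout library was below the lowest wild-type library, which was a condition for their choice. UBD, a ubiquitin-like modifier, was called at -3.98 ± 1.05 (edgeR adjusted p = 0.0219), but its wild-type libraries spread from 2.81 to 17.6 CPM, and the call was lost without the third wild-type library, at -3.63, without the third ARID1B-KO library, at -4.44, and in a fit of the 6 DMSO libraries alone, at -3.97. The value of UBD was -3.39 and that of CAP2 -6.30 without the second ARID1B-KO library, and CLDN6 was at -4.34 ± 0.50 in the length-corrected fit.

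**Figure D2:**
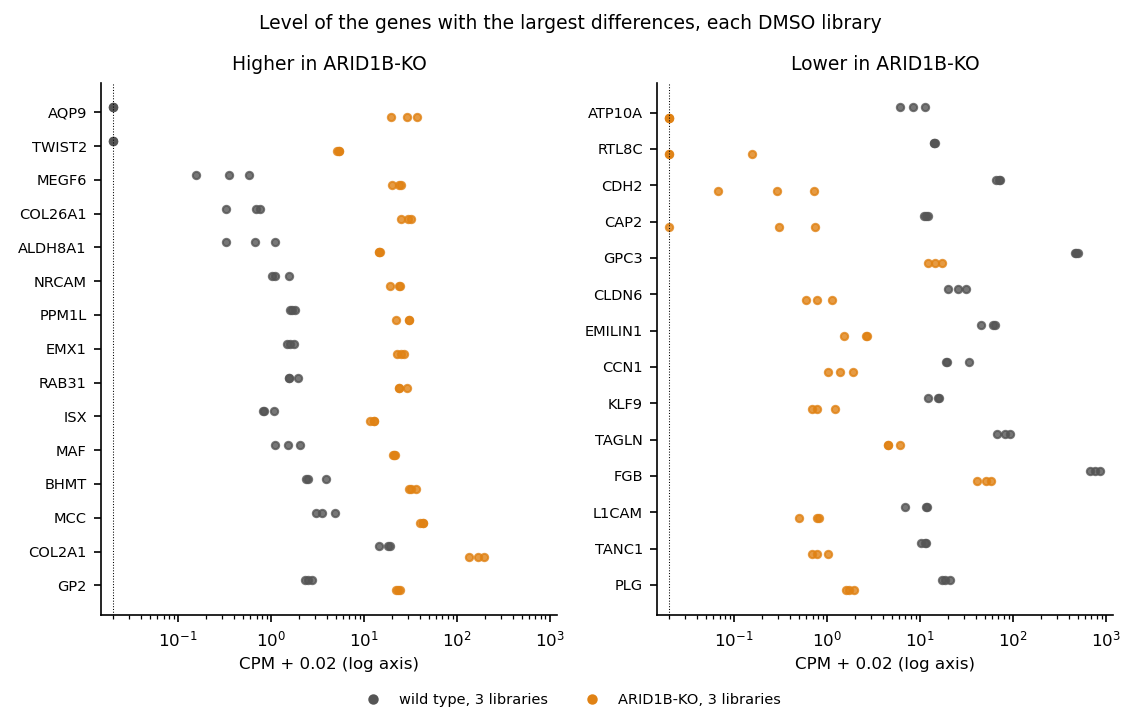
Each point is the level of a gene in 1 DMSO library, as CPM + 0.02 on a log axis, for 15 genes higher (left panel) and 14 lower (right panel) in ARID1B-KO. Grey points are the 3 wild-type and orange points the 3 ARID1B-KO libraries, and the dotted line marks 0 counts. No gene shown has overlapping genotypes, which was a condition for the choice of most of them. AQP9, TWIST2 and ATP10A sit on the dotted line in 1 genotype.

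The largest rises included collagens, developmental transcription factors and enzymes of the liver. COL26A1, a short collagen of the reproductive tract, rose from 0.308, 0.749 and 0.674 to 30.1, 32.2 and 24.9 CPM, 5.68 ± 0.26 on the log2 scale (edgeR adjusted p = 1.39e-08). COL2A1, the main collagen of cartilage, rose from 14.6, 18.4 and 19.1 to 169.6, 194 and 137 CPM (3.27 ± 0.17, edgeR adjusted p = 5.27e-08). MEGF6, a secreted protein with EGF-like repeats, rose from 0.137, 0.562 and 0.337 to 19.97, 25.1 and 23.8 CPM (6.11 ± 0.27, edgeR adjusted p = 1.36e-08). In the length-corrected fit MEGF6 was at 7.33 ± 0.36. COL26A1 and MEGF6 were thus close to silent in wild type, while COL2A1 was already read there.

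Other large rises were NRCAM, a neural adhesion molecule (4.22 ± 0.19), the homeobox factors EMX1 of the forebrain (3.99 ± 0.15) and ISX of the intestine (3.79 ± 0.20), and MAF, a bZIP factor (3.75 ± 0.23). The phosphatase PPM1L (4.06 ± 0.20), the vesicle GTPase RAB31 (3.94 ± 0.15), the tumour suppressor candidate MCC (3.47 ± 0.17) and GP2, a glycoprotein of pancreatic granules (3.21 ± 0.16), belonged to the same group. Enzymes among them were ALDH8A1, which acts in tryptophan breakdown (4.42 ± 0.30), and BHMT, which remethylates homocysteine (3.48 ± 0.17). No overlap between genotypes was a condition for the choice of these genes. The length-corrected values of NRCAM and GP2 were 5.02 ± 0.58 and 2.59 ± 0.34.

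Genes with the largest differences in absolute level are given next. ALB, serum albumin and the most abundant messenger here, was at 31820, 33870 and 32090 CPM in wild type and 51990, 53950 and 47180 CPM in ARID1B-KO (0.65 ± 0.19, edgeR adjusted p = 0.0205). Every knockout library was above every wild-type library, but the call was lost when any library but the third ARID1B-KO one was left out, at 0.60 to 0.67 on the log2 scale (edgeR adjusted p = 0.0536 to 0.0673). AFP, the fetal counterpart of albumin, was at 18170, 20260 and 19230 CPM in wild type and 18200, 19860 and 18190 CPM in ARID1B-KO and was not called (-0.04 ± 0.15, edgeR adjusted p = 0.89). The protease inhibitor A2M fell from 7173, 8863 and 9328 to 4552, 4997 and 3553 CPM (-0.95 ± 0.21, edgeR adjusted p = 0.0043). FN1, fibronectin, fell from 6566, 8328 and 9018 to 4752, 4886 and 3379 CPM (-0.88 ± 0.21).

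LYZ, lysozyme, fell from 3610, 4019 and 3976 to 2427, 1795 and 1831 CPM (-0.94 ± 0.14, edgeR adjusted p = 0.000324), and RELN, a large secreted glycoprotein, from 962, 1135 and 1201 to 357, 345 and 224 CPM (-1.83 ± 0.23). Rises of high level were in AKR1C1, an aldo-keto reductase that inactivates progesterone, from 1285, 1102 and 1064 to 3132, 2815 and 3201 CPM (1.41 ± 0.12), and in 2 paternally expressed genes, PEG10 (0.59 ± 0.11) and DLK1 (1.26 ± 0.17). For PEG10 the call was lost in the length-corrected fit, at 0.41 ± 0.17 (edgeR adjusted p = 0.114). For APOA2, the second protein of high-density lipoprotein, the measures differed. Its CPM fell from 2864, 2743 and 2520 to 1254, 1962 and 2162 (-0.60 ± 0.17, edgeR adjusted p = 0.0178). Its mean TPM was 12840 in wild type and 13500 in ARID1B-KO, and the length-corrected difference was -0.02 ± 0.15. Its transcripts average 397 bases. The mean share of the transcript APOA2-203 in the gene's TPM was 0.04% in wild type and 31.03% in ARID1B-KO. The parts of transcript length and of Salmon's division of reads in these values were not tested. The call was also lost without the second wild-type library and in the 6 DMSO libraries alone, at -0.59 in both.

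The gene lists below cover the pathways and functions of the liver and of epithelial cells. Each is described by its members called, read against 14.3% higher and 13.5% lower over all genes, with no test of the list. Calls in the length-corrected fit are given beside them. Counts of at most 3 members ranged from 0 to 5 when a library was left out.

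**Figure D3:**
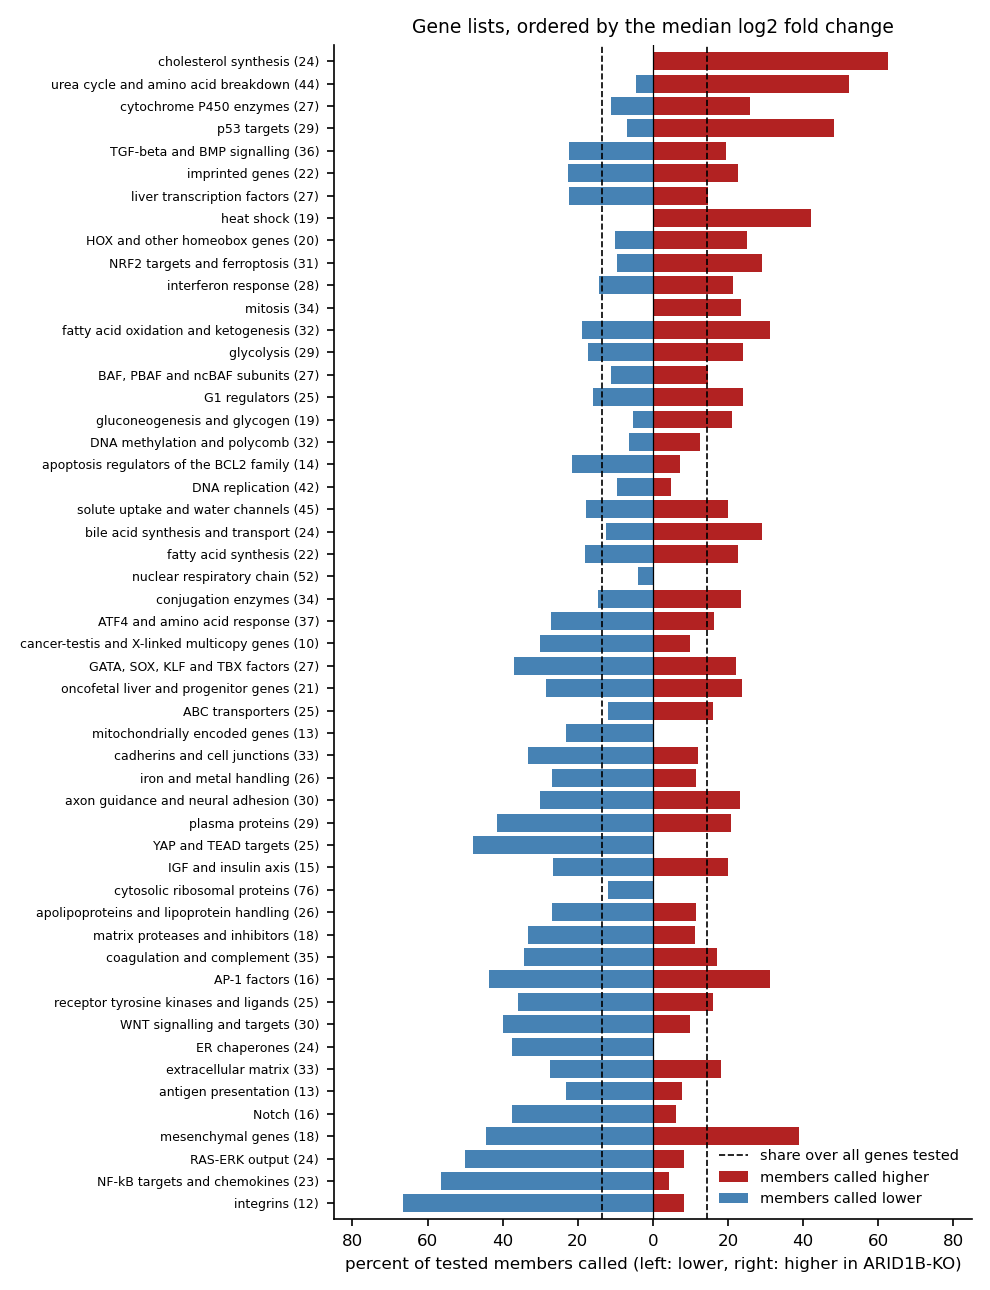
Bars give the percent of tested members of each list (their number in brackets) that were called lower (blue, left) or higher (red, right) in ARID1B-KO. The dashed lines mark the 13.5% and 14.3% over all genes tested, and lists are ordered by their median log2 fold change. Cholesterol synthesis stands at the top with 15 of 24 members higher, and integrins at the bottom with 8 of 12 lower.

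Adhesion to matrix and neighbouring cells comes first. Of 12 integrins, the receptors for matrix proteins, 8 fell and 1 rose (5 and 0 in the length-corrected fit), with a median of -0.81. ITGB1, the partner of most alpha chains, fell from 574, 601 and 646 to 400.5, 392 and 338 CPM (-0.69 ± 0.13, edgeR adjusted p = 0.00214). ITGA10 changed by -3.01 ± 0.46, ITGA2 by -1.32 ± 0.22, ITGAV by -0.99 ± 0.17 and ITGA1 by -0.94 ± 0.14. The subunits named are receptors or parts of receptors for collagen, laminin, vitronectin and fibronectin.

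Among 33 genes of cadherins and cell junctions, 11 fell and 4 rose (9 and 2 in the length-corrected fit), and 7 fell without the third wild-type or the third ARID1B-KO library. Besides CDH2 and CLDN6, the desmosomal cadherin DSG2 fell from 134, 142 and 156 to 76.5, 72.8 and 60.8 CPM (-1.04 ± 0.13) and its plaque protein DSP from 318, 382 and 419 to 202, 223 and 181 CPM (-0.88 ± 0.12). The adherens molecule NECTIN3 fell as well (-0.94 ± 0.16). CDH1, E-cadherin, stood at 4.69, 4.59 and 2.25 CPM in wild type and 6.51, 3.19 and 3.70 CPM in ARID1B-KO, a low level for an epithelial line, and was not called (0.22 ± 0.36, edgeR adjusted p = 0.694).

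Mesenchymal genes split. Of 18 tested, 7 rose and 8 fell (5 and 5 in the length-corrected fit), with a median of -0.59, and 4 rose without the first wild-type or the second ARID1B-KO library. The transcription factors TWIST2 and SNAI2, repressors of epithelial genes, were among those that rose, SNAI2 from 0.137, 0.281 and 0 to 3.33, 2.43 and 2.98 CPM (4.41 ± 0.58, edgeR adjusted p = 0.000129). At these low wild-type levels the value of SNAI2 was 5.26 without the second and 3.81 without the third wild-type library. Structural and secreted members fell: TAGLN and FN1, above, the adhesive glycoprotein THBS1 from 169 to 42.0 CPM on average (-2.01 ± 0.24) and SPARC (-0.88 ± 0.19). PDGFRB, a growth factor receptor of mesenchymal cells, fell from 13.5, 17.9 and 21.6 to 4.33, 4.40 and 2.50 CPM (-2.23 ± 0.27), a call lost in the length-corrected fit (-1.70 ± 0.94, edgeR adjusted p = 0.244). The actin-binding CALD1 rose (0.46 ± 0.09).

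The extracellular matrix list also went both ways, with 9 of 33 lower and 6 higher (11 and 5 in the length-corrected fit). The counts higher were 3 without the first wild-type or the second ARID1B-KO library. Apart from COL26A1 and COL2A1, members that differed were the proteoglycan VCAN (-2.69 ± 0.47, and -3.50 ± 0.69 in the length-corrected fit), the cartilage proteins MATN3 (-2.35 ± 0.22) and COL9A3 (-0.97 ± 0.12), the fibrillin FBN1 (1.16 ± 0.22) and vitronectin, VTN (-1.64 ± 0.18). MATN3 and COL9A3 thus fell where COL2A1, with which they lie in cartilage, rose. Of 18 matrix proteases and inhibitors, 6 fell and 2 rose (5 and 0 in the length-corrected fit). The metalloprotease MEP1A went from 7.26, 9.74 and 9.67 to 0.333, 0.180 and 0.240 CPM (-5.12 ± 0.31), and the inhibitors TIMP1 (-2.82 ± 0.22) and TIMP2 (-2.03 ± 0.25) and the plasminogen activator PLAU (-1.71 ± 0.35) fell.

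Axon guidance and neural adhesion genes were called in both directions, 7 higher and 9 lower of 30 (4 and 7 in the length-corrected fit), with 4, 4 and 3 higher without the first wild-type, the first ARID1B-KO or the second ARID1B-KO library. SEMA3A was lost, as above, and the related SEMA3F fell (-0.98 ± 0.20). NRP1, a receptor for SEMA3A, rose from 1.95, 2.43 and 3.22 to 11.8, 9.75 and 6.59 CPM (1.89 ± 0.25, edgeR adjusted p = 0.000116).

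Of 27 transcription factors of the liver, 4 rose and 6 fell (5 and 4 in the length-corrected fit), with a median of 0.15. NR5A2, a nuclear receptor of bile acid and cholesterol metabolism, fell from 16.1, 15.4 and 14.0 to 2.52, 2.88 and 3.22 CPM (-2.40 ± 0.24, edgeR adjusted p = 1.13e-05). GATA6, a factor of endoderm development, fell from 6.20, 5.90 and 5.96 to 1.52, 1.66 and 2.21 CPM (-1.74 ± 0.19). The bile acid receptor NR1H4 rose from 47.5, 39.5 and 33.7 to 90.2, 84.5 and 92.1 CPM (1.14 ± 0.12) and the bZIP factor CEBPA from 152, 146 and 148 to 315, 292 and 296 CPM (1.02 ± 0.07). No genotypes overlapped for these 4 genes. HNF4A, at 200.2, 218 and 227 CPM in wild type and 279.7, 244 and 236 CPM in ARID1B-KO, did not overlap either but was not called (0.24 ± 0.09, edgeR adjusted p = 0.0674). DESeq2 called it, at 0.23 (adjusted p = 0.0293).

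Of 27 GATA, SOX, KLF and TBX factors, 6 rose and 10 fell (5 and 9 in the length-corrected fit), and 3 rose without the second ARID1B-KO library. KLF12 fell from 6.61, 7.35 and 5.77 to 0.190, 0.0449 and 0 CPM (-6.30 ± 0.49) and SOX6 from 8.52, 8.33 and 10.8 to 0.571, 0.449 and 0.529 CPM (-4.15 ± 0.19). KLF6, a more abundant Krüppel-like factor, fell from 82.3 to 31.3 CPM on average (-1.39 ± 0.11). GATA5 was nearly silent in wild type (0.0342, 0 and 0 CPM) and was read in ARID1B-KO (1.14, 1.84 and 0.962 CPM). Its difference of 6.18 ± 0.57 (edgeR adjusted p = 6.01e-06) has no firm size: it was 7.91 without the first wild-type library. KLF12 was at -7.86 without the first ARID1B-KO library. Of 20 homeobox genes, 5 rose and 2 fell (3 and 1 in the length-corrected fit), with IRX3 at 1.09 ± 0.14 and HOXD1 at 0.73 ± 0.12. The rises were 3 without the second ARID1B-KO library.

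Growth factor and inflammatory signalling outputs were called lower more often than higher. Of 25 YAP and TEAD targets and partners, which respond to cell shape and adhesion, 12 fell and 0 rose (7 and 1 in the length-corrected fit), with a median of -0.22. CCN1 stood at 19.2, 19.7 and 33.9 CPM in wild type and 1.38, 1.89 and 1.01 CPM in ARID1B-KO (-4.08 ± 0.26, edgeR adjusted p = 2.97e-07). CCN2, its relative, was at 360.4, 389 and 466 and 187, 217 and 163 CPM (-1.10 ± 0.15, adjusted p = 0.00018). The muscle ankyrin gene ANKRD1 (-2.98 ± 0.26), the growth factor regulator CRIM1 (-2.66 ± 0.21) and AXL, a receptor kinase (-2.52 ± 0.41), fell further. Of the pathway's own factors, TEAD2 fell from 9.14, 8.85 and 9.03 to 2.28, 2.02 and 2.12 CPM (-2.07 ± 0.22), WWTR1, which encodes TAZ, changed by -0.66 ± 0.07 and YAP1 by -0.22 ± 0.08. In the length-corrected fit TEAD2 was at -3.14 ± 0.37, and WWTR1 (-0.32 ± 0.13, edgeR adjusted p = 0.126) and YAP1 (-0.32 ± 0.11, adjusted p = 0.0566) were not called. The call of YAP1 was also lost when any library but the first ARID1B-KO one was left out (-0.24 to -0.19), in the 6 DMSO libraries alone (-0.22) and without a filter on low counts (-0.23).

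Of 24 genes induced by RAS and ERK signalling, 12 fell and 2 rose (8 and 2 in the length-corrected fit), with a median of -0.62. The immediate early factor EGR1 fell from 23.4, 23.7 and 35.7 to 5.80, 10.8 and 7.21 CPM (-1.80 ± 0.27, edgeR adjusted p = 0.000476) and the ERK phosphatase DUSP6 from 126, 111 and 118 to 70.3, 61.6 and 68.0 CPM (-0.83 ± 0.14). The feedback inhibitors SPRY1 (-0.77 ± 0.12) and SPRY2 (-0.68 ± 0.15) fell by similar amounts, and the ETS factor ETV4 by less (-0.53 ± 0.09). CCND1, cyclin D1, went the other way, from 183, 206 and 214 to 322, 297 and 281 CPM (0.58 ± 0.09). Of 25 receptor tyrosine kinases and ligands, 9 fell and 4 rose (8 and 2 in the length-corrected fit). ERBB2 (-0.87 ± 0.20) and ERBB3 (-0.84 ± 0.15) fell from 179 to 98.0 and from 376 to 210.1 CPM on average, and EGFR, of the same family, rose from 43.6, 52.9 and 62.8 to 109.3, 112 and 75.3 CPM (0.90 ± 0.18).

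AP-1 factors were less certain. Of 16 tested, 7 fell and 5 rose, but the length-corrected fit called 1 and 3. Without the third wild-type library 0 fell, without the third ARID1B-KO library 3 and without the first ARID1B-KO library 4, and 2 to 4 rose with any library left out. The bZIP factor MAF, above, was among the rises.

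Of 23 NF-kB targets and chemokines, 13 fell and 1 rose (11 and 1 in the length-corrected fit), with a median of -0.64. The adhesion receptor ICAM1 fell from 115, 131 and 165 to 38.3, 42.6 and 30.6 CPM (-1.88 ± 0.17, edgeR adjusted p = 7.58e-06) and the chemokine CCL20 from 199, 157 and 148 to 43.0, 45.3 and 54.3 CPM (-1.82 ± 0.15, adjusted p = 3.51e-06). The inhibitor of apoptosis BIRC3 (-1.91 ± 0.29), the NF-kB brake TNFAIP3 (-1.02 ± 0.07) and the precursor subunit NFKB2 (-0.91 ± 0.12, and -2.29 ± 0.57 in the length-corrected fit) fell too. The death ligand TNFSF10 was the member that rose (1.07 ± 0.11). Interferon response genes showed no such tilt, with 6 higher and 4 lower of 28 (4 and 2 in the length-corrected fit). MX1 (1.41 ± 0.24) and MX2 (1.14 ± 0.08) rose, while the membrane restriction factors IFITM2 (-2.31 ± 0.27) and IFITM3 (-1.47 ± 0.16) fell.

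Of 30 WNT genes and targets, 12 fell and 3 rose (9 and 1 in the length-corrected fit), with a median of -0.40. HepG2 cells carry an activating deletion in beta-catenin, whose gene CTNNB1 was at 319, 344 and 331 CPM in wild type and 396, 278 and 302 CPM in ARID1B-KO and was not called (-0.03 ± 0.11). The secreted antagonist DKK1 fell from 116, 98.9 and 107 to 16.3, 15.1 and 15.4 CPM (-2.78 ± 0.13, edgeR adjusted p = 1.39e-08). The receptor LGR5 fell from 108.6, 122 and 120.2 to 50.9, 51.2 and 44.1 CPM (-1.26 ± 0.11). The negative feedback genes NOTUM (-0.84 ± 0.17), NKD1 (-0.62 ± 0.09) and AXIN2 (-0.56 ± 0.10) fell by smaller amounts. GLUL, glutamine synthetase and a WNT target in pericentral hepatocytes, rose (0.64 ± 0.08), as did the receptor FZD7 (1.22 ± 0.28). The call of GLUL was lost in the length-corrected fit (0.26 ± 0.12, edgeR adjusted p = 0.162).

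Of 16 Notch genes, 6 fell and 1 rose, with 2 and 1 in the length-corrected fit, and 3, 3 and 2 fell without the third wild-type, the first ARID1B-KO or the third ARID1B-KO library. The target HEY1 fell from 9.52, 10.3 and 10.2 to 1.85, 1.66 and 2.16 CPM (-2.40 ± 0.21, edgeR adjusted p = 3.68e-06), and HES6, an antagonist within the family, rose (0.87 ± 0.10). TGF-beta and BMP genes were called in both directions, 7 higher and 8 lower of 36 (5 and 5). The coreceptor TGFBR3 fell from 367, 434 and 435 to 172, 149 and 116 CPM (-1.50 ± 0.18), the receptor TGFBR2 by less (-0.97 ± 0.14) and the ligand TGFB1 from 43.4 to 19.5 CPM on average (-1.16 ± 0.20). BMP4 (0.77 ± 0.10) and the BMP-induced genes SMAD6 (1.45 ± 0.17, and 2.41 ± 0.49 in the length-corrected fit) and ID2 (0.85 ± 0.16) rose.

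Secreted liver proteins were called lower more often than higher. Of 35 coagulation and complement genes, 12 fell and 6 rose (13 and 3 in the length-corrected fit), with a median of -0.30. Rises were 2 or 3 without the first or second library of either genotype. All fibrinogen chains fell: FGA from 1777, 1711 and 1592 to 566, 539 and 425 CPM (-1.73 ± 0.16), FGG from 2607, 2598 and 2186 to 1156, 1038 and 914 CPM (-1.25 ± 0.17) and FGB, above, the most. The related FGL1 fell from 241, 242 and 237 to 65.9, 76.5 and 64.2 CPM (-1.80 ± 0.10), and by more in the length-corrected fit (-2.64 ± 0.16). CFB (-1.24 ± 0.18) and C5 (-0.86 ± 0.18) of the complement cascade fell, and KNG1, kininogen, rose from 4.52, 5.95 and 5.73 to 25.3, 21.9 and 18.4 CPM (2.02 ± 0.16, edgeR adjusted p = 1.53e-06).

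Of 29 other plasma proteins, 12 fell and 6 rose (8 and 6 in the length-corrected fit). SERPINA3, an acute phase protease inhibitor, fell from 505, 526 and 521 to 99.0, 78.8 and 63.0 CPM (-2.69 ± 0.20, edgeR adjusted p = 1.19e-06). The serum amyloid gene SAA4 rose from 103, 102 and 97.5 to 309, 357 and 311 CPM (1.69 ± 0.12) and HAMP, the iron hormone hepcidin, from 20.3, 14.7 and 19.1 to 34.5, 65.0 and 52.8 CPM (1.49 ± 0.23). Antithrombin, SERPINC1, rose from 144 to 314 CPM on average (1.13 ± 0.12), and the thyroid hormone carrier TTR fell (-0.77 ± 0.12). SERPINA1, at -0.22 ± 0.16, and transferrin, TF, at -0.29 ± 0.15, were not called. Of 26 apolipoproteins and lipoprotein genes, 7 fell and 3 rose (4 and 3), among them the receptor VLDLR (-2.74 ± 0.40) and the transfer protein CETP (-3.43 ± 0.84), both lower.

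Oncofetal and progenitor genes did not move as a group: 5 rose and 6 fell of 21 (3 and 6 in the length-corrected fit), and 3 rose without the second wild-type, the third wild-type or the first ARID1B-KO library. GPC3 and SPINK1, a trypsin inhibitor (-5.71 ± 0.61, and -6.43 ± 1.21 in the length-corrected fit), fell, while AFP was not called. DLK1, above, and CD24, a surface glycoprotein (2.18 ± 0.14), rose.

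Of 24 cholesterol synthesis genes, 15 rose and 0 fell (11 and 0 in the length-corrected fit), with a median of 0.53, and 11 to 15 rose with any library left out. MVK, mevalonate kinase, rose from 36.4, 36.7 and 33.5 to 62.3, 86.7 and 68.6 CPM (1.03 ± 0.11, edgeR adjusted p = 2.68e-05), IDI1, an isomerase of the isoprenoid steps, from 205, 166 and 153 to 329, 324 and 364 CPM (0.96 ± 0.13) and MSMO1, a sterol oxidase, from 237, 259 and 255 to 555, 496 and 421 CPM (0.97 ± 0.13). HMGCS1, an enzyme of the pathway's first steps, rose by less (0.56 ± 0.10).

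Of 44 genes of the urea cycle and amino acid breakdown, 23 rose and 2 fell (17 and 1 in the length-corrected fit), with a median of 0.39. CDO1, cysteine dioxygenase, rose from 7.19, 5.15 and 5.17 to 33.0, 30.5 and 33.4 CPM (2.46 ± 0.17, edgeR adjusted p = 4.24e-07). AGXT, which removes glyoxylate in peroxisomes, rose from 15.1, 16.3 and 13.1 to 43.1, 41.0 and 45.1 CPM (1.54 ± 0.13). MAT1A, the liver form of the enzyme that makes S-adenosylmethionine, rose from 139, 131 and 129 to 302, 300.4 and 290.2 CPM (1.16 ± 0.08), and HPD, of tyrosine breakdown, rose by 1.03 ± 0.09. Together with BHMT these are enzymes typical of mature hepatocytes. ASS1 (0.81 ± 0.10) and CPS1 (0.46 ± 0.11) of the urea cycle rose by smaller amounts.

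Other metabolic lists went both ways. Cytochrome P450 genes were called higher in 7 and lower in 3 of 27 (5 and 2 in the length-corrected fit). Log2 fold changes of the tested members ran from -3.51 to 2.95, and TREAT called 1 higher and 1 lower. Among the rises were CYP19A1, aromatase, at 1.89 ± 0.16 and CYP24A1, which degrades vitamin D, at 1.64 ± 0.31. Of 34 conjugation enzymes, 8 rose and 5 fell (6 and 6). The glutathione transferase GSTA1 rose from 36.7, 30.3 and 27.8 to 247, 232 and 259 CPM (2.96 ± 0.14, edgeR adjusted p = 2e-08) and GSTA2 from 4.07, 3.28 and 4.05 to 22.4, 22.1 and 23.3 CPM (2.56 ± 0.13), and since the genes are near-identical in part, the division of reads between them is uncertain. NAT2, an arylamine acetyltransferase, rose from 0.0634 to 1.28 CPM on average (4.21 ± 0.62).

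Of 31 NRF2 targets and ferroptosis genes, 9 rose and 3 fell (10 and 3 in the length-corrected fit). AKR1B10, an aldo-keto reductase of liver tumours, rose from 57.7, 70.4 and 67.5 to 346, 302 and 339 CPM (2.34 ± 0.12, edgeR adjusted p = 2.77e-08) and the heme oxygenase HMOX1 from 21.7, 19.6 and 19.7 to 44.2, 49.4 and 52.1 CPM (1.25 ± 0.09). AKR1C2 fell from 162, 162 and 160.2 to 36.2, 29.9 and 29.96 CPM (-2.33 ± 0.10) while its close paralog AKR1C1 rose, and reads shared by them make both values uncertain. Of 24 bile acid genes, 7 rose and 3 fell (4 and 2), with the exporter subunit SLC51B at 1.01 ± 0.15.

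Of 45 uptake genes, 9 rose and 8 fell (6 and 7 in the length-corrected fit), with 5 higher without the first ARID1B-KO library. The glucose transporter SLC2A1, GLUT1, fell from 539.6, 754 and 875 to 221, 197 and 149 CPM (-1.94 ± 0.21, edgeR adjusted p = 2.91e-05) and SLC2A3, GLUT3, from 27.9, 31.5 and 40.8 to 11.98, 12.8 and 6.30 CPM (-1.69 ± 0.22). Of 29 glycolysis genes, which include both transporters, 7 rose and 5 fell (4 and 3), with the platelet phosphofructokinase PFKP at -4.94 ± 0.97 (-6.92 without the third ARID1B-KO library). Of 26 iron and metal genes, 3 rose and 7 fell (4 and 6), and 4 fell without the first ARID1B-KO library. The ferric reductase CYBRD1 rose from 0.103, 0.562 and 0.300 to 7.46, 8.98 and 6.68 CPM (4.63 ± 0.40, 3.69 ± 0.45 in the length-corrected fit and 5.25 without the second wild-type library), ceruloplasmin, CP, fell from 174, 165 and 185 to 52.2, 47.8 and 43.0 CPM (-1.87 ± 0.16) and the iron exporter SLC40A1 fell (-1.13 ± 0.15).

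Of 29 p53 target genes, 14 rose and 2 fell (11 and 1 in the length-corrected fit), with a median of 0.34. BTG2, an antiproliferative gene, rose from 10.9, 9.83 and 7.98 to 27.1, 30.9 and 26.5 CPM (1.56 ± 0.12, edgeR adjusted p = 1.39e-06), SPATA18, of mitochondrial quality control, from 10.2, 10.5 and 9.44 to 23.5, 17.5 and 19.7 CPM (1.01 ± 0.12), and MDM2, the ligase that degrades p53, from 169.6, 163 and 169 to 276, 248 and 248 CPM (0.62 ± 0.08). SESN1 (0.77 ± 0.10) and PHLDA3 (0.70 ± 0.07) rose likewise. The cell cycle inhibitor CDKN1A, p21, rose from 41.2, 41.9 and 45.1 to 60.1, 80.3 and 78.5 CPM (0.77 ± 0.10), a call lost in the length-corrected fit (0.33 ± 0.16, edgeR adjusted p = 0.176).

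Of 42 DNA replication genes, 2 rose and 4 fell (1 and 4 in the length-corrected fit), under the shares over all genes. Of 34 mitosis genes, 8 rose and 0 fell (6 and 0), and 4 rose without the second wild-type, the third wild-type or the third ARID1B-KO library. CCNA2, cyclin A2, was at 158, 119.7 and 128 CPM in wild type and 225, 210.2 and 228 CPM in ARID1B-KO (0.71 ± 0.12), and AURKA, a spindle kinase, changed by 0.48 ± 0.10. Of 25 G1 regulators, 6 rose and 4 fell (3 and 3), with 2 lower without the third wild-type library, among them CDKN2A, which encodes p16 and p14ARF, from 4.45, 2.81 and 3.97 to 10.4, 10.5 and 13.6 CPM (1.61 ± 0.25). MYC overlapped between genotypes and was not called (0.06 ± 0.09, edgeR adjusted p = 0.658).

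Stress lists differed in direction. Of 19 heat shock genes, 8 rose and 0 fell, with 4 and 0 in the length-corrected fit. The rises were 3 without the second wild-type library and 5 without the third wild-type, the first ARID1B-KO or the third ARID1B-KO library. HSPA4L (0.65 ± 0.09) and DNAJA1 (0.46 ± 0.10) were among them. Of 24 ER chaperones and sensors of unfolded protein, 9 fell and 0 rose, with 4 and 0 in the length-corrected fit, and 5, 5 and 4 fell without the third wild-type, the first ARID1B-KO or the third ARID1B-KO library. CRELD1, a membrane protein with EGF-like domains, fell from 39.3, 44.2 and 43.8 to 21.2, 23.2 and 17.9 CPM (-1.03 ± 0.12). Of 37 genes of the amino acid response run by ATF4, 6 rose and 10 fell (4 and 4), with 6 lower without the third wild-type library. Log2 fold changes of the tested members ran from -2.74 to 0.72, and TREAT called 1 lower and 0 higher. The pseudokinase TRIB3 was among the rises (0.72 ± 0.08).

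Very short genes stood lower. Tested genes whose transcripts average under 400 bases numbered 59, of which 2 were called higher and 14 lower, with a median log2 fold change of -0.57. From 400 to 600 bases, 9 of 271 were higher and 34 lower (median -0.19). From 600 bases up, medians lay between -0.02 and 0.02. The following calls fall in the short classes or next to them, and the part of length in them was not tested beyond the length-corrected fit.

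Of 76 cytosolic ribosomal protein genes, 9 fell and 0 rose (7 and 0 in the length-corrected fit), with a median of -0.23. The share called lower, 11.8%, was under the 13.5% over all genes. The count of falls was unstable: 4 without the first library of either genotype, 5 without the second ARID1B-KO library, and 15 and 14 without the third wild-type and the third ARID1B-KO library. RPS28 (-1.15 ± 0.26, 347 bases) and RPL38 (-1.08 ± 0.26, 442 bases) changed most among those with transcripts read in both genotypes. Of 13 mitochondrially encoded messengers, 3 fell and 0 rose in both fits: MT-ND4L (-1.36 ± 0.33, 297 bases), MT-ND3 (-1.12 ± 0.21, 346 bases) and MT-ATP8 (-1.22 ± 0.34, 207 bases). The call of MT-ATP8 was lost without the second wild-type, the second ARID1B-KO or the third ARID1B-KO library (edgeR adjusted p = 0.0546 to 0.0867) and in the fit without a filter on low counts. Of 52 nuclear respiratory chain genes, 2 fell and 0 rose (2 and 1 in the length-corrected fit), with 5 lower without the third wild-type or the third ARID1B-KO library and 0 lower without the first wild-type, the first ARID1B-KO or the second ARID1B-KO library.

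Of 22 imprinted genes, 5 rose and 5 fell (5 and 3 in the length-corrected fit), and 3 fell without the second wild-type, the third wild-type or the first ARID1B-KO library. ATP10A, which was lost, lies on chromosome 15 in the same imprinted region as MKRN3 (chromosome 15, 23565674 to 23630075, plus strand), a ubiquitin ligase expressed from the paternal copy. MKRN3 was at 0.171, 0.0936 and 0 CPM in wild type and at 3.61, 2.96 and 3.13 CPM in ARID1B-KO (5.09 ± 0.54, edgeR adjusted p = 2.1e-05, and 6.08 without the first wild-type library). SNRPN, between them on the chromosome (chromosome 15, 24823637 to 24978723, plus strand), fell slightly (-0.35 ± 0.09).

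Shares of called genes differed among chromosomes. On chromosome 17, 26.0% of tested genes were lower and 9.0% higher, with a median log2 fold change of -0.156. Chromosomes 6 (22.1% lower, 10.0% higher) and 5 (20.2% lower, 10.0% higher) tilted the same way. Chromosome 21 tilted the other way, with 39 of 130 tested genes higher and 7 lower and a median of 0.18, as did chromosome 2 (22.2% higher and 10.9% lower). These are counts of genes and no measure of DNA copy number.

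**Figure D4:**
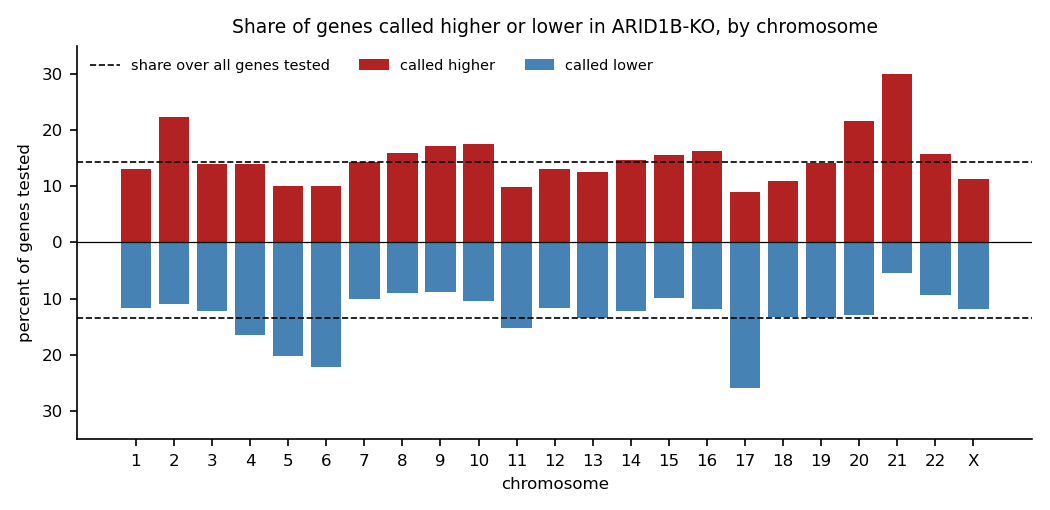
Bars give the percent of the genes tested on each chromosome that were called higher (red, up) or lower (blue, down) in ARID1B-KO, and dashed lines the 14.3% and 13.5% over all genes tested. Chromosome 21 has the tallest bar upward, with 39 of its 130 genes, and chromosome 17 the longest downward, at 26.0%.

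In windows of 40 neighbouring tested genes, the highest median was 0.448, on chromosome 21 from 41420020 to 45573365, where 18 genes were higher and 2 lower. In the sorafenib libraries the median genotype difference of that window was 0.244. On chromosome 2, the windows from 196833004 to 203226378 (median 0.343, 18 higher and 0 lower) and from 226731312 to 238042782 (median 0.321, 20 higher and 2 lower) had medians of 0.358 and 0.298 in the sorafenib libraries. Chromosome 17 held the windows from 75087727 to 76141245 (median -0.374, 16 lower and 0 higher) and from 36601583 to 40304657 (median -0.364, 15 lower and 0 higher), at -0.288 and -0.351 in the sorafenib libraries. The tilts of these windows were thus found with the same sign in libraries that the DMSO contrast did not use. They are examples. Windows on chromosome 19 from 19629476 (median 0.362) and chromosome 17 from 42678889 (-0.39) were at 0.4 and -0.277 with sorafenib. Weaker tilts did not all recur: windows on chromosome 15 from 20379495 (-0.196) and chromosome 1 from 16645622 (-0.166) were at -0.001 and 0.088.

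The lowest median, -0.94, was in the window of the major histocompatibility complex on chromosome 6, from 31639028 to 33272047, where 8 genes were lower and 0 higher. In the sorafenib libraries that window was at -0.383. The region has alternate copies in the genome build, among which reads can be divided. Between 29 and 34 Mb of chromosome 6, 14 of 81 tested genes had the switching counts among replicates described above, and 18 were called lower and 0 higher, with a median of -0.49 (also -0.49 over the genes that did not switch).

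The genotype difference was also measured in the 6 sorafenib libraries, which share no library with the DMSO contrast. There 3463 genes were called (27.0% of those tested). Of the 3563 genes called in DMSO, 1024 were called higher and 962 lower in the same direction, 55.7% of them. A further 1263 had the same sign without a call, 283 the opposite sign without a call, and 31 were called in the opposite direction. Of the 308 genes changed by more than 2-fold, 291 (94.5%) were called in the same direction. GPC3 changed by -4.65 there, CDH2 by -8.05, FGB by -4.03, COL2A1 by 3.52 and MEGF6 by 6.94 on the log2 scale. With sorafenib the mean of AQP9 was 0.0319 CPM in the wild-type libraries and 8.98 CPM in those of ARID1B-KO.

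A direct test of the difference between both genotype effects (the interaction term) called 107 genes (0.835%), of which 81 were among those called in DMSO and 12 among the 308 large differences. HEY1, lower by -2.40 in DMSO, was at -0.28 in the sorafenib libraries, and DKK1, at -2.78 in DMSO, was at -3.70. Both of these differences between treatments passed the interaction test.

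Transcript usage, the share of each transcript in the TPM of its gene, was compared in 9588 genes with at least 2 transcripts past the filter. The test for unequal usage (diffSpliceDGE, adjusted Simes p under 0.05) called 392 genes, and 83 of them (0.866%) also had a called transcript whose share shifted by at least 20 percentage points with no overlap between genotypes. Of the 83, 53 showed no call at the gene level, 23 were higher and 7 lower. In 45, the main gaining and losing transcripts start more than 100 bases apart, and in 28 at least 1 of them is not annotated as protein coding. In 68, both the gain and the loss had the same direction in the sorafenib libraries. The count was 45 without the first ARID1B-KO library, 47 without the second wild-type library and 52 without the third ARID1B-KO library. Of the 83 genes themselves, 41% (without the first ARID1B-KO library) to 63.9% (without the first wild-type library) stayed called with a library left out.

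Among the 12 genes with the largest shifts, RPL24, RPL23A, SNRPD2, UQCRH, RPL18 and BRI3 have main gaining and losing transcripts of at most 780 bases. RPL24-202 and BRI3-202 are annotated without a defined coding sequence, and UQCRH-202 as a retained intron. The starts of RPL24-201 and RPL24-202 lie 6 bases apart. Salmon divides reads among overlapping transcripts, and the part of that division in these shifts was not tested. In RPL24, of the large ribosomal subunit, RPL24-201 took 6.53, 0.92 and 1.53% of the TPM in wild type and 96.84, 95.3 and 96.26% in ARID1B-KO, and RPL24-202 took 92.24, 97.83 and 97.41% and 2.42, 3.79 and 1.97%. In RPL23A, the transcript RPL23A-205 went from 92.97, 94.9 and 90.66% to 0.15, 0.36 and 0.33%. UQCRH-202, of a respiratory complex III gene, went from 1.78, 3.41 and 1.93% to 78.52, 64.03 and 78.12%. SNRPD2-203, of a spliceosome protein gene, went from 14.59, 0 and 0% to 84.68, 68.87 and 80.8%, RPL18-214 from 0, 0 and 7.1% to 78.18, 62.19 and 75.64%, and BRI3-202, of a membrane protein gene, from 0, 0 and 0% to 75.88, 60.97 and 61.63%. Of the 83 genes, 7 have symbols that start with RPL or RPS, which leaves out FAU and MRPL20. The share of such symbols among all genes tested for usage was not counted.

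**Figure D5:**
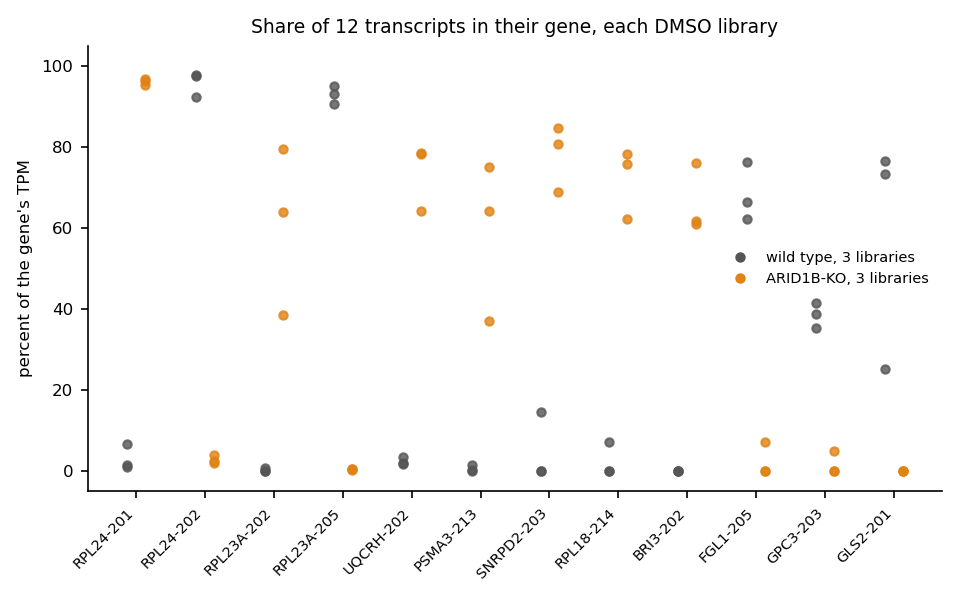
Each point is the percent of its gene's TPM that a transcript took in 1 DMSO library, for 12 transcripts with large shifts, with grey for the 3 wild-type and orange for the 3 ARID1B-KO libraries. RPL24-201 lies below 7% in wild type and above 95% in ARID1B-KO, and GLS2-201, at 0% in ARID1B-KO, spreads from 25.03% to 76.5% in wild type.

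Shifts were also found in liver genes. FGL1-205 took 76.26, 62.11 and 66.31% of the hepatokine gene FGL1 in wild type and 7.18, 0 and 0% in ARID1B-KO, while the TPM of the gene fell from 368 to 62.1. GPC3-203 went from 35.27, 41.34 and 38.67% to 0, 0 and 4.87% as GPC3 itself fell. GLS2-201, of the liver glutaminase, went from 25.03, 73.38 and 76.5% to 0, 0 and 0%, with wide spread in wild type. The shifts of GLS2 and of ZNF304, also among the 12 largest, were not found in the same direction with sorafenib. ABHD17C and CYP1A1 were among the 12 as well. With sorafenib their gaining transcripts were again higher in ARID1B-KO, at mean shares of 57.68% against 80.57% and 42.11% against 66.67%. Their losing transcripts were at 0% in both genotypes there. AASDH, the last of the 12, an enzyme of lysine metabolism, lost AASDH-201, from 71, 28.73 and 97.06% to 0, 0 and 0%.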

How the data were processed

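Polyadenylated RNA of HepG2 cells was read from both ends. The authors deposited a Salmon table per library that gives, per the file headers, an estimated count and a TPM for each of 177456 transcripts. Estimated counts were deposited without normalization, and the TPM deposited by the authors are scaled to a fixed total within a library. The submitters' processing notes name Salmon, DESeq2 1.46.0 and build GRCh38. The design text names Ensembl release 109. Strand and bias settings are not given in the sources used here.

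By identifier without version, 165533 of the transcripts (93.3%) were found in GENCODE release 44. Counts were summed to 35810 genes and rounded. All 12 libraries, grouped by title, entered an edgeR 4.0.16 quasi-likelihood fit (R 4.3.3, TMM, filterByExpr, 4 group means), with Benjamini-Hochberg adjustment over 12821 genes. The threshold of a call was an adjusted p under 0.05, and adjusted p of genes are from edgeR except where DESeq2 is named. Changes are log2 fold changes ± SE, the SE being the absolute value divided by the square root of F. Means are over n = 3 libraries. Usage was tested with diffSpliceDGE. Near-identical genes share reads, so their levels are uncertain. On simulated counts with known changes, the tests recovered most of what had been put in. Gene changes were put only into well counted genes. The division of reads by Salmon and differences in transcript length were not simulated, so the simulation cannot speak to them.

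Named genes were ARID1B and the BAF subunits, the 15 largest rises and falls among called genes of at least 10 CPM without overlap, the 10 largest changes of CPM, genes at 0 in a genotype and at least 5 CPM in the other, up to 6 members of each list, the 12 largest usage shifts, and HNF4A, CEBPA, ALB, AFP, CDH1, CDH2, GPC3, DLK1, MYC, CCND1 and CTNNB1. Part of them are printed, and some results are not reported here. ASS1, AXIN2, BMP4, C5, CALD1, CCN2, CFB, COL9A3, CPS1, DSG2, DSP, EGFR, ERBB2, ERBB3, ETV4, GLUL, HMGCS1, HPD, ID2, ITGB1, KLF6, MDM2, NECTIN3, NFKB2, NKD1, NOTUM, PHLDA3, SEMA3F, SERPINA1, SERPINC1, SNRPN, SPARC, SPRY2, TF, TNFAIP3, TTR, WWTR1 and YAP1 were chosen after their values were seen. The comparison, the lists and the genes were chosen with earlier results of these data known. Alternatives were a fit of the 6 DMSO libraries alone, RLE and upper quartile scaling, no filter, a length offset, a replicate block, each library left out, DESeq2 1.42.0, and other limits of the usage result. The alternatives of the list counts and of the count shared with sorafenib were chosen after seeing the data.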

Additional observations from a re-analysis of the deposited data

Results flagged for a closer look

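For 11 of the genes named, the genotype difference in the sorafenib libraries differed from that in DMSO by the interaction test (edgeR, adjusted over all genes). Values are the log2 difference between both effects ± SE, sorafenib minus DMSO, with 3 libraries in each group. HEY1 differed by 2.12 ± 0.32 (adjusted p = 0.0182), from -2.40 to -0.28, PPM1L by 1.72 ± 0.32 (adjusted p = 0.0315), from 4.06 to 5.78, and TGFBR3 by 1.24 ± 0.25 (adjusted p = 0.0414), from -1.50 to -0.26. GATA5 differed by -3.76 ± 0.73 (adjusted p = 0.0397), from 6.18 to 2.42, on few counts in wild type. LGR5 differed by -0.999 ± 0.17 (adjusted p = 0.0264), ETV4 by -0.99 ± 0.14 (adjusted p = 0.0136), DKK1 by -0.91 ± 0.17 (adjusted p = 0.0347) and TNFAIP3 by -0.65 ± 0.10 (adjusted p = 0.0261): all 4 were lower in ARID1B-KO in DMSO and further below wild type with sorafenib. HMOX1 differed by -0.71 ± 0.13 (adjusted p = 0.0306), HMGCS1 by -0.69 ± 0.14 (adjusted p = 0.0438) and CEBPA by -0.68 ± 0.10 (adjusted p = 0.0182), whose rises in DMSO were smaller or not found with sorafenib (0.54, -0.12 and 0.33). With 3 libraries in each group, outlying libraries were not searched for.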

How the results depend on the processing

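The length offset moved the results most: 2190 genes were called (1133 higher, 1057 lower) against 3563, and 1081 against 1986 called genes were called the same way with sorafenib. The count of usage genes (83) was 137 at 10 points, 50 at 30 points and 54 with the replicate block. With each library left out in turn, the ranges were -1.24 to -1.14 for ARID1B, 2529 to 3531 genes called, 262 to 285 at more than 2-fold, 1577 to 1937 shared with sorafenib and 45 to 106 usage genes. Under the other alternatives these values kept their direction and were within 1.5 times: 3071 to 4023 genes were called, the lowest from the 6 DMSO libraries alone and the highest from DESeq2. Same-numbered libraries did not deviate together (correlations -0.088 to 0.018), so the numbers are not taken as pairs; the replicate block gave 3381 called genes, 289 at more than 2-fold, 1857 shared with sorafenib and -1.19 for ARID1B. The block ended the call of YAP1 (-0.22) among the genes printed. Genes not called near 0 turned sign: AFP was at 0.08 with the offset and at -0.08 to 0.00 with each library left out, CDH1 at -0.31 and at -0.17 to 0.41, MYC at -0.23 with the offset, and CTNNB1 at -0.20 to 0.07 with each library left out. Of 193 printed genes that were called, 12 lost the call under at least 1 alternative. Genes of few counts have fold changes whose size depends on single libraries, and the depth does not tell 0 from very low levels.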

Other observations

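Lists not described above were mixed or small. Of 32 fatty acid oxidation and ketogenesis genes, 10 rose and 6 fell (8 and 4 in the length-corrected fit), with the fatty acid binding protein FABP1 at -1.12 ± 0.27 and the dehydrogenase ACADSB at 0.76 ± 0.09. Fatty acid synthesis had 5 rises and 4 falls among 22 genes (3 and 4 in the length-corrected fit), with 1 and 2 falls without the second wild-type and the third ARID1B-KO library. DGAT2, which makes triglyceride, was among the rises (0.65 ± 0.15). Of 19 genes of gluconeogenesis and glycogen, 4 rose and 1 fell (3 and 0), with the glycogen targeting subunit PPP1R3C at 1.20 ± 0.12. Of 25 ABC transporters, 4 rose and 3 fell (4 and 1), and 1 or 2 rose without the first wild-type, the first ARID1B-KO or the second ARID1B-KO library. ABCG5, a sterol exporter, rose (0.71 ± 0.18).

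Of 15 genes of the IGF and insulin axis, 3 rose and 4 fell (3 and 3 in the length-corrected fit), and 1 rose without the second wild-type, the first ARID1B-KO or the second ARID1B-KO library. The binding proteins IGFBP6 (-3.01 ± 0.31), IGFBP2 (-1.22 ± 0.22) and IGFBP1 (-0.98 ± 0.18) were all lower. Of 13 antigen presentation genes, 1 rose and 3 fell (1 and 3), among them CD74 (-0.74 ± 0.17). Of 32 DNA methylation and polycomb genes, 4 rose and 2 fell (1 and 1), with 2 higher without the third wild-type or the first ARID1B-KO library, and DNMT3B was at 0.49 ± 0.11. Of 14 BCL2 family genes, 1 rose and 3 fell (0 and 1), with 1 lower without the second wild-type or the third ARID1B-KO library. Of 10 cancer-testis and X-linked multicopy genes, 1 rose and 3 fell (1 and 4), BEX3 being the rise (0.86 ± 0.14).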
